A study of Saccharomyces cerevisiae with 5 samples.

Results

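The yeast cell wall genes described here are 40 genes of Saccharomyces cerevisiae chosen by name: 23 mannoproteins and related anchored wall proteins, and 17 enzymes that make or remodel glucan and chitin. Of these, 39 had a matched probe set among the 5449 genes tested, 22 of them mannoproteins and 17 enzymes, and FLO5 was not analysed here. Each of the 39 was read by 1 probe set, and only that of FLO9 carried an identifier that marks it as shared between sequences. The data are 5 Affymetrix expression arrays, 2 of a strain labelled as a PHO2 deletion mutant and 3 of the prototrophic wild-type strain FY4, all from batch cultures growing exponentially in minimal medium with glucose at 30 °C and 300 rpm. PHO2 encodes a homeodomain transcription factor that works with partner factors at genes of purine synthesis and phosphate uptake. The labels do not say in which strain or how the deletion was made, whether it is 1 clone, or whether replicates came from separate cultures, so p-values measure the spread between these arrays, which may be technical.

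The wall of budding yeast is a mesh of beta-1,3-glucan, with shorter beta-1,6-glucan and a little chitin, covered by heavily mannosylated proteins. Most mannoproteins are fixed to beta-1,6-glucan through the remnant of a glycosylphosphatidylinositol (GPI) anchor, and the PIR proteins (proteins with internal repeats) are bound directly to beta-1,3-glucan. The set of mannoproteins in the wall is known to change with oxygen, temperature and growth stage. The enzymes of the glucan mesh also include stress-induced and spore forms.

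Values are log2 of the deposited probe set signal, a linear intensity, and differences are PHO2 deletion minus wild-type. A gene is said to have risen or fallen only where limma, fitted over all 5449 genes, gave a Benjamini-Hochberg adjusted p below 0.05. The background bound, the 95th percentile of the 1747 annotated probe sets matched to no S. cerevisiae gene, was 6.44. Among all genes 173 rose and 102 fell, and 172 rose and 245 fell when the arrays were quantile normalized again. Array pairs correlated across genes with r = 0.994 within the PHO2 deletion group and r from 0.988 to 0.995 within wild-type, and the lowest correlation between groups was 0.965, of PHO2 deletion replicate 2 with wild-type replicate 3. PHO2 itself read 10.07 and 10.84 in the group labelled PHO2 deletion, against 10.72, 10.54 and 10.38 in wild-type. The groups overlapped for that gene (difference -0.09, SE 0.24, limma adjusted p = 0.825), so the labels are not borne out by the signal of the deleted gene, and "PHO2 deletion" here means the arrays carrying that label. Where those probes lie relative to the deleted part is not given in the sources.

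The wall genes that passed the test were all mannoproteins. Of the 22 measured mannoproteins 4 rose and 0 fell, and of the 17 enzymes 0 rose and 0 fell, against 3.17% of all genes that rose and 1.87% that fell. For 21 of the 39 the groups did not overlap, where 53.0% of all genes showed this. Those that rose were HPF1, TIP1, TIR3 and DAN1, the last at a level below the background bound in both groups. In all, 4 of the 39 wall genes passed the test, where 5.05% of all genes did. At an unadjusted limma p below 0.05, 6 mannoproteins and 3 enzymes passed, against 29.4% of all genes. The median difference was 0.07 for the mannoproteins and 0.05 for the enzymes, beside 0.01 for all genes. On single arrays the mannoprotein median stood at 0.06 and 0.12 above the wild-type mean on the PHO2 deletion arrays, and at 0.02, 0.00 and 0.01 on the wild-type arrays. Whether the classes differ was not tested as such. RNA of whole cultures was measured, in which more cells carrying a transcript and more transcript per cell cannot be told apart.

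**Figure D1:**
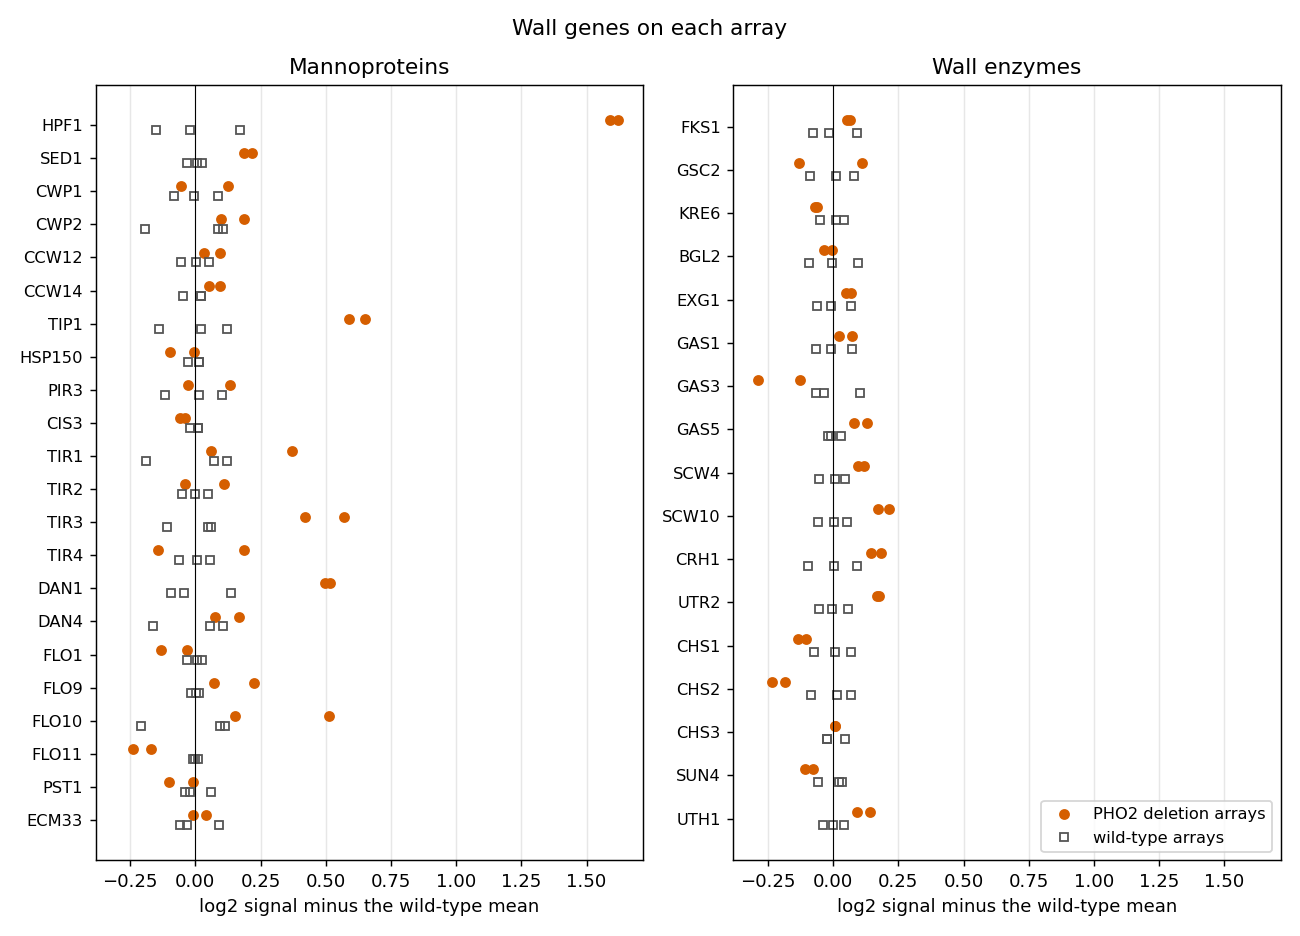
Log2 signal of each measured wall gene on each array, minus the wild-type mean of that gene (x axis), with filled circles for the 2 PHO2 deletion arrays and open squares for the 3 wild-type arrays. HPF1 stands furthest out, TIP1, TIR3 and DAN1 have both circles to the right of all squares by 0.36 or more, and the enzymes in the right panel stay near the line.

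HPF1 (YOL155C) moved most. It encodes a GPI-anchored mannoprotein of the wall that is known for reducing protein haze in wine. Its log2 values were 13.30 and 13.33 on the PHO2 deletion arrays, against 11.69, 11.56 and 11.88 on the wild-type arrays. The groups lay 1.42 apart at their closest, while the wild-type arrays spanned 0.32. On the linear scale the signal was 10067 and 10323 in the PHO2 deletion group and 3298, 3011 and 3769 in wild-type. The mean was 13.32 ± 0.03 (SD, n = 2) in the PHO2 deletion group and 11.71 ± 0.16 (SD, n = 3) in wild-type. That is a 3.05-fold rise (log2 1.61, SE 0.10, 95% interval 1.34 to 1.87, limma adjusted p = 0.0048), the largest absolute difference among the wall genes and number 18 among all 5449. HPF1 passed with any 1 wild-type array left out, at adjusted p from 0.0038 to 0.0436, and missed the threshold without PHO2 deletion replicate 1 (log2 1.63, adjusted p = 0.0723) or PHO2 deletion replicate 2 (1.59, 0.0535), where a lone array stands for its group. Its neighbours in the gene table of assembly R64 were YOL155W-A, with a difference of 0.27 (adjusted p = 0.214), and ZPS1, a gene of zinc-limited and alkaline growth, with 0.01 (adjusted p = 0.949).

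TIP1 (YBR067C), a GPI-anchored mannoprotein gene induced by cold shock, also rose. It gave 13.35 and 13.29 on the PHO2 deletion arrays, against 12.82, 12.72 and 12.56 on the wild-type arrays. All PHO2 deletion values exceeded all wild-type values, by 0.47 at the closest. The rise was 1.54-fold (log2 0.62, SE 0.09, 95% interval 0.39 to 0.85, limma adjusted p = 0.0312). Its neighbour NRG2, which encodes a zinc-finger repressor of glucose-repressed genes, rose by a similar size: 11.73 and 11.67 in the PHO2 deletion group, against 10.88 to 11.23 in wild-type (log2 difference 0.66, SE 0.11, limma adjusted p = 0.0433). On the other side of TIP1 the amino acid permease gene BAP2 had a difference of 0.12 (adjusted p = 0.684). TIP1 missed the threshold when PHO2 deletion replicate 1 (adjusted p = 0.216), PHO2 deletion replicate 2 (0.151), wild-type replicate 1 (0.0822) or wild-type replicate 2 (0.0540) was left out, with differences from 0.55 to 0.68 over the 5 such fits.

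The other GPI-anchored structural proteins did not pass the test. SED1, the major wall protein of stationary-phase cells, gave 14.33 and 14.30 on the PHO2 deletion arrays, against 14.12, 14.08 and 14.14 on the wild-type arrays. The groups did not overlap, yet the difference of 0.20 (SE 0.05, 95% interval 0.07 to 0.34) missed the threshold (limma adjusted p = 0.0909). It passed only with a variance trend in the test (adjusted p = 0.0382). CCW12, a small and abundant mannoprotein, gave 14.97 and 15.03 in the PHO2 deletion group, against 14.99, 14.94 and 14.88 in wild-type, and the groups overlapped (difference 0.06, 95% interval -0.09 to 0.21). CWP2, another small mannoprotein, had 14.67 and 14.76 in the PHO2 deletion group, against 14.68, 14.66 and 14.38 in wild-type, where replicate 3 was the low array (difference 0.14, 95% interval -0.13 to 0.41). CWP1, a mannoprotein of birth scars, differed by 0.04 (95% interval -0.18 to 0.26) and CCW14, an inner-layer wall glycoprotein, by 0.07 (-0.07 to 0.22). CWP1 and CWP2 lie next to each other, and neither passed the test. Genes of 600 nt or less, such as CWP2 (279 nt) and CCW12 (402 nt), had a median difference of 0.32 over 908 genes, beside -0.02 for longer genes. Both small wall genes lay below that median for short genes.

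The 3 PIR proteins among the listed wall genes and the ECM33 pair held no gene past the threshold. HSP150 (PIR2), a heat-inducible PIR protein, gave 13.93 and 14.02 on the PHO2 deletion arrays, against 14.00, 14.04 and 14.04 on the wild-type arrays. Its neighbour CIS3 (PIR4) gave 13.92 and 13.90, against 13.97, 13.97 and 13.94, and both differed by -0.05. PIR3 differed by 0.05 (95% interval -0.18 to 0.29). A further member of that family, PIR1, fell: 13.40 and 13.42 in the PHO2 deletion group, against 13.87, 13.91 and 13.88 in wild-type (log2 -0.48, SE 0.05, limma adjusted p = 0.0154). PIR1 no longer passed once any PHO2 deletion array or wild-type replicate 1 was dropped (adjusted p up to 0.155 over the alternatives). The difference of that fall from the values of the other PIR genes was not tested. PST1, induced by wall damage, and its duplicate ECM33, a GPI protein needed for normal wall structure, differed by -0.06 (95% interval -0.22 to 0.11) and 0.02 (-0.15 to 0.19).

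**Figure D2:**
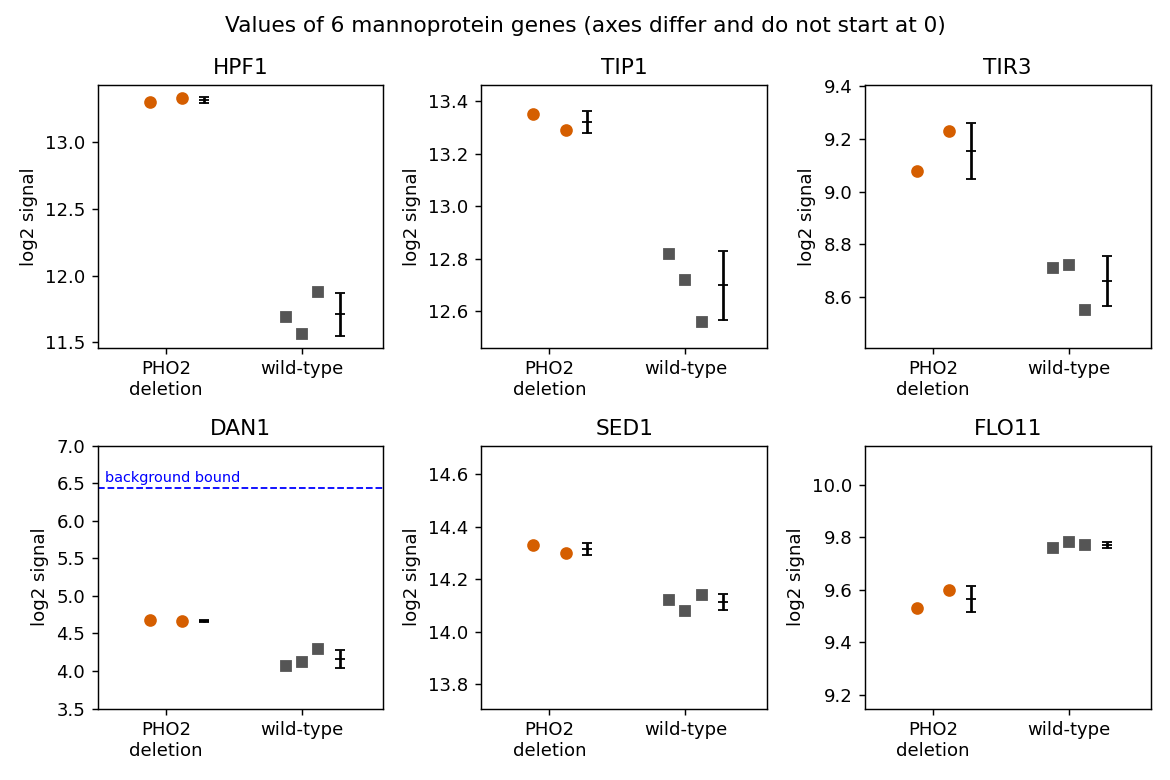
Log2 signal (y axis, a separate range for each gene) of HPF1, TIP1, TIR3, DAN1, SED1 and FLO11, with circles for the PHO2 deletion arrays at left, squares for the wild-type arrays at right, and bars for mean ± SD (n = 2 and 3). The groups are apart for all 6, and all DAN1 values lie under the dashed background bound of 6.44.

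The TIR and DAN genes encode serine- and alanine-rich mannoproteins that replace CWP1 and CWP2 when oxygen is scarce, and are known to be repressed in air. Of the 6 measured, TIR3 and DAN1 rose, beside 3.17% of all genes. All 6 differences were positive (median 0.17), as were those of 2819 of all 5449 genes. Those of TIR2 and TIR4 were negative when the arrays were quantile normalized again or centred on their median. TIR3 gave 9.08 and 9.23 on the PHO2 deletion arrays, against 8.71, 8.72 and 8.55 on the wild-type arrays. The groups lay 0.36 apart at the closest, and TIR3 rose 1.41-fold (log2 0.50, SE 0.08, limma adjusted p = 0.0421). DAN1 gave 4.68 and 4.66 in the PHO2 deletion group, against 4.07, 4.12 and 4.30 in wild-type, which passed the test (adjusted p = 0.0414). Those DAN1 values are below the background bound on all arrays, so no fold is given, and the difference did not pass when an offset of 50 was added to the signal (0.15, adjusted p = 0.129). DAN4, next to DAN1 on the chromosome, was well above the bound, with 10.71 and 10.62 in the PHO2 deletion group and 10.60, 10.38 and 10.65 in wild-type, and its groups overlapped (difference 0.12, 95% interval -0.13 to 0.37). On the other side of DAN1, YJR149W rose by 0.74 (SE 0.11, limma adjusted p = 0.0345). The neighbours of TIR3 were YIL012W, which has no value, and DOT5, with a difference of -0.01 (adjusted p = 0.938).

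TIR1, TIR2 and TIR4 did not pass. TIR1, a cold-shock-induced gene, gave 8.92 and 9.23 on the PHO2 deletion arrays, against 8.98, 8.67 and 8.93 on the wild-type arrays (difference 0.22, 95% interval -0.13 to 0.56). The neighbours TIR4 and TIR2 differed by 0.02 (-0.26 to 0.30) and 0.03 (-0.15 to 0.21), and both groups overlapped for each. TIR3 missed the threshold without any 1 of the 5 arrays, at adjusted p of 0.179 and 0.187 without PHO2 deletion replicates 1 and 2, and 0.134, 0.0582 and 0.0559 without wild-type replicates 1, 2 and 3. A second quantile normalization gave TIR3 a difference of 0.32 (adjusted p = 0.0946). DAN1 missed it without PHO2 deletion replicate 1 (0.241), PHO2 deletion replicate 2 (0.178), wild-type replicate 1 (0.138) and wild-type replicate 2 (0.0675).

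Other genes known to respond to oxygen and heme included 1 that rose and 2 that fell of the 13 on the list, with a median of 0.05, beside 3.17% and 1.87% of all genes. Of the 13 differences 8 were positive and 5 negative. The largest, of the short genes CYC7 (342 nt, 1.25) and COX5B (544 nt, 0.69), missed the threshold (limma adjusted p = 0.125 and 0.127). The sterol transporter gene PDR11 rose by 0.50 (SE 0.06, limma adjusted p = 0.0183). AAC3, the ADP/ATP carrier isoform of anaerobic growth, and FET4, the low-affinity iron transporter, had differences of -0.49 (SE 0.07, adjusted p = 0.0288) and -0.50 (SE 0.08, 0.0398), and so fell. UPC2 and ECM22, activators of sterol and anaerobic genes, had differences of -0.02 and -0.15, and the repressor genes ROX1 and MOT3 of 0.05 and -0.10. None of these 4 regulators passed (adjusted p from 0.202 to 0.928).

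Flocculins are large lectin-like or adhesive mannoproteins that hold cells together or to surfaces, and most are known to be silent in laboratory strains of the S288C lineage. None of the 4 measured passed the test. FLO11, needed for invasive and biofilm growth, gave 9.53 and 9.60 on the PHO2 deletion arrays, against 9.76, 9.78 and 9.77 on the wild-type arrays. Both PHO2 deletion values were below all wild-type values, and the difference of -0.21 (SE 0.05, 95% interval -0.34 to -0.07) had a limma adjusted p of 0.0904. FLO10 was variable, with 9.98 and 10.34 in the PHO2 deletion group, against 9.92, 9.94 and 9.62 in wild-type (difference 0.33, SE 0.15, adjusted p = 0.212). FLO1 gave 8.07 and 7.97, against 8.07, 8.13 and 8.11, and overlapped (difference -0.08). FLO1 passed, as fallen, only after a second quantile normalization (-0.39, adjusted p = 0.0341). The shared probe set of FLO9 gave 10.29 and 10.44 in the PHO2 deletion group, against 10.22, 10.20 and 10.23 in wild-type (difference 0.15, 95% interval -0.02 to 0.31). FLO1, FLO5 and FLO9 are near-identical over long stretches, and which of them that signal comes from cannot be told apart.

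Regulators of the flocculin and stress-induced wall genes held 2 risen and 0 fallen genes of 20, beside 3.17% and 1.87% of all genes. Their median difference was -0.02. The 2 that rose were NRG1 and its paralog NRG2, repressors known to act on FLO11 and on glucose-repressed genes. NRG1 gave 10.05 and 9.56 on the PHO2 deletion arrays, against 8.84, 9.03 and 8.89 on the wild-type arrays (log2 difference 0.89, SE 0.16, limma adjusted p = 0.0455). NRG1 no longer passed with any 1 wild-type array left out, and NRG2 no longer passed without wild-type replicate 1 or 3. The activator gene FLO8 differed by -0.30 (adjusted p = 0.0909), and HAA1, an activator of weak-acid response genes, by 0.27 (0.0712). TEC1, STE12, MSS11 and SFL1 lay between -0.15 and -0.09 and did not pass.

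**Figure D3:**
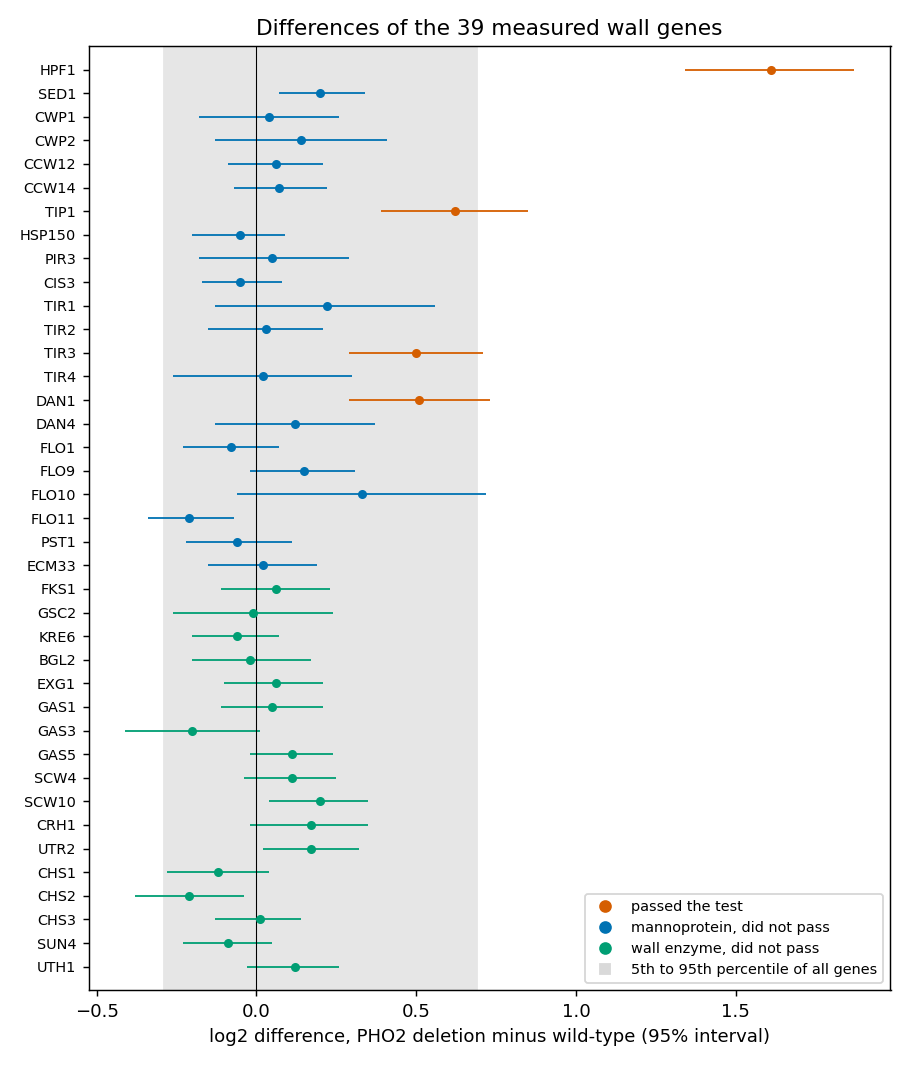
Log2 difference, PHO2 deletion minus wild-type, of the 39 measured wall genes with limma 95% intervals (x axis), mannoproteins above enzymes. The grey band runs from the 5th to the 95th percentile of all genes, -0.29 to 0.69, and only HPF1 lies outside it; every enzyme estimate lies between -0.21 and 0.20.

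The enzymes of glucan and chitin showed no difference past the threshold. Their intervals limit only how large a difference in signal between these groups of arrays could be. All 17 differences were between -0.21 and 0.20, and all 17 of the 95% intervals lay within 0.5 log2 units of 0. Of all genes, 4009 of 5449 had an interval that narrow, so the enzymes share this with most transcripts. The groups did not overlap for 6 enzymes with the PHO2 deletion arrays higher and for 5 with them lower, against 27.1% and 25.9% of all genes.

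None of the 3 glucan synthase genes passed the test. FKS1, the main catalytic subunit of beta-1,3-glucan synthase, gave 14.22 and 14.23 on the PHO2 deletion arrays, against 14.15, 14.09 and 14.26 on the wild-type arrays (difference 0.06, 95% interval -0.11 to 0.23). GSC2 (FKS2), its stress-induced duplicate, gave 11.74 and 11.98, against 11.95, 11.78 and 11.88 (-0.01, -0.26 to 0.24). KRE6, which acts in beta-1,6-glucan synthesis, differed by -0.06 (-0.20 to 0.07).

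Among the glucan remodelling enzymes SCW10 came closest to the threshold on the upper side and GAS3 on the lower side. SCW10, a glucanase-like wall protein, gave 13.45 and 13.41 on the PHO2 deletion arrays, against 13.24, 13.18 and 13.29 on the wild-type arrays (difference 0.20, SE 0.06, limma adjusted p = 0.119). Its duplicate SCW4 differed by 0.11 (95% interval -0.04 to 0.25). GAS3, a member of the glucanosyltransferase family that elongates beta-1,3-glucan, gave 12.99 and 13.15, against 13.24, 13.21 and 13.38 (-0.20, SE 0.08, adjusted p = 0.182). The main glucanosyltransferase gene GAS1 differed by 0.05 (-0.11 to 0.21) and GAS5 by 0.11 (-0.02 to 0.24). BGL2, a wall endoglucanase and transferase, and EXG1, the major exoglucanase, differed by -0.02 (-0.20 to 0.17) and 0.06 (-0.10 to 0.21).

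CRH1 and UTR2, the transglycosylases that link chitin to glucan, had similar small positive values. UTR2 gave 13.72 and 13.73 on the PHO2 deletion arrays, against 13.61, 13.50 and 13.55 on the wild-type arrays (difference 0.17, SE 0.06, limma adjusted p = 0.135), and CRH1 differed by 0.17 (adjusted p = 0.202). For each gene both PHO2 deletion values lay above all wild-type values. Of the chitin synthases, CHS2, which builds the primary septum, gave 11.58 and 11.63, against 11.83, 11.88 and 11.73 (-0.21, SE 0.07, adjusted p = 0.126). CHS1, which repairs the wall after separation, differed by -0.12 (95% interval -0.28 to 0.04). CHS3, the source of most wall chitin, gave 12.73 on both PHO2 deletion arrays, against 12.70, 12.70 and 12.77 (0.01, -0.13 to 0.14).

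The SUN family genes SUN4, which acts in septum separation, and UTH1, of the wall and mitochondria, differed by -0.09 (95% interval -0.23 to 0.05) and 0.12 (-0.03 to 0.26). The duplicate of UTH1, NCA3, rose. NCA3 gave 8.04 and 7.80 on the PHO2 deletion arrays, against 6.62, 6.51 and 6.72 on the wild-type arrays, just above the background bound, a 2.47-fold rise (log2 1.30, SE 0.10, limma adjusted p = 0.0087). Leaving out PHO2 deletion replicate 1 (adjusted p = 0.0723) or wild-type replicate 1 (0.0654) ended the call. The duplicate of SUN4, SIM1, differed by -0.06 (adjusted p = 0.553). SPR1, the spore form of EXG1, differed by 0.10 (adjusted p = 0.428).

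Of 28 measured wall proteins outside the 40 genes, 6 rose, 1 fell and 21 did not pass, with a median of 0.21, beside 3.17% of all genes that rose and 1.87% that fell. YGP1, a secreted glycoprotein induced by starvation and stress, gave 13.45 and 13.13 on the PHO2 deletion arrays, against 10.33, 10.47 and 10.24 on the wild-type arrays. YGP1 was the 1 gene of the companion lists that passed in all 15 alternatives (log2 difference 2.95, SE 0.12, limma adjusted p = 0.00086). SPI1, a GPI wall protein known to be induced by weak acids, gave 10.42 and 10.46, against 9.46, 9.65 and 9.19 (a 2.0-fold rise, SE 0.14 in log2, adjusted p = 0.0288). SPI1 has 447 nt, and genes of 600 nt or less had a median difference of 0.32. Its wild-type replicate 3 differed by -0.36 from the mean of the other wild-type arrays. PUN1, a plasma membrane protein, rose by 0.47 (SE 0.06, adjusted p = 0.0213) and NCA3 and PIR1 are given above. SPS22, of the spore wall, passed at values below the background bound in both groups (6.27 in the PHO2 deletion group and 5.34 in wild-type), so no size is given. FIT1, a mannoprotein that helps retain iron carriers in the wall, averaged 9.51 in the PHO2 deletion group and 9.16 in wild-type, and rose by 0.36 (SE 0.05, adjusted p = 0.0288).

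In genes that build or control the wall around these proteins few differences passed the test, as among all genes, of which 5.05% passed and 29.4% had an unadjusted p below 0.05. In cell wall integrity signalling 0 of 23 rose and 0 fell by limma (6 at an unadjusted p below 0.05, median 0.03), the largest differences being those of the phosphatase gene SDP1 (0.54, adjusted p = 0.0768) and the exchange factor gene ROM1 (0.49, adjusted p = 0.0903). SLT2, the kinase at the end of that cascade, and RLM1, its transcription factor, differed by 0.05 and 0.06. In protein mannosylation 1 of 30 rose and 0 fell (median -0.04). That gene was MNN1, the mannosyltransferase that caps the sugar chains, with 12.78 and 12.79 in the PHO2 deletion group, against 12.41, 12.42 and 12.51 in wild-type (0.33, SE 0.06, limma adjusted p = 0.0425). MNN1 passed in 7 of 15 alternatives, and neither after a second quantile normalization nor with arrays centred on their median. In beta-1,6-glucan assembly 0 of 10 passed by limma (2 at an unadjusted p below 0.05, median 0.07), led by SKN1 (0.22) and ROT1 (0.21).

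Among other chitin genes 1 of 14 rose (median 0.02) and among other glucan enzymes 1 of 10 (median 0.03). Of all genes, 3.17% rose and 1.87% fell. Both of the risen genes encode enzymes of the spore wall. CDA1, a chitin deacetylase, gave 8.46 and 8.42 on the PHO2 deletion arrays, against 6.96 to 7.36 on the wild-type arrays (log2 1.33, SE 0.13, limma adjusted p = 0.0152). GAS4, a spore-wall glucanosyltransferase, averaged 6.85 in the PHO2 deletion group and 5.66 in wild-type, below the bound there, so it was at least 1.33-fold higher (adjusted p = 0.0228), and it has no value without genes below the bound. EXG2, an exoglucanase gene on the same list, differed by -0.40 (SE 0.08, adjusted p = 0.0528) and passed as fallen in 6 of 15 alternatives, a second quantile normalization, median centring and the offset of 50 among them. Of the 14 sporulation wall genes, 3 rose (CDA1, GAS4 and SPS22), and OSW1 fell at values below the bound in both groups, beside the same shares of all genes. The other 10 did not pass, among them GAS2 (0.03) and CDA2 (0.16, below the bound in both groups). The median of the 14 was 0.14, with 10 positive and 4 negative differences. The summed signal of the 14 ranged from 2936 to 3334 in the PHO2 deletion group and from 2531 to 2763 in wild-type, and 6 of them had a mean below the bound.

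**Figure D4:**
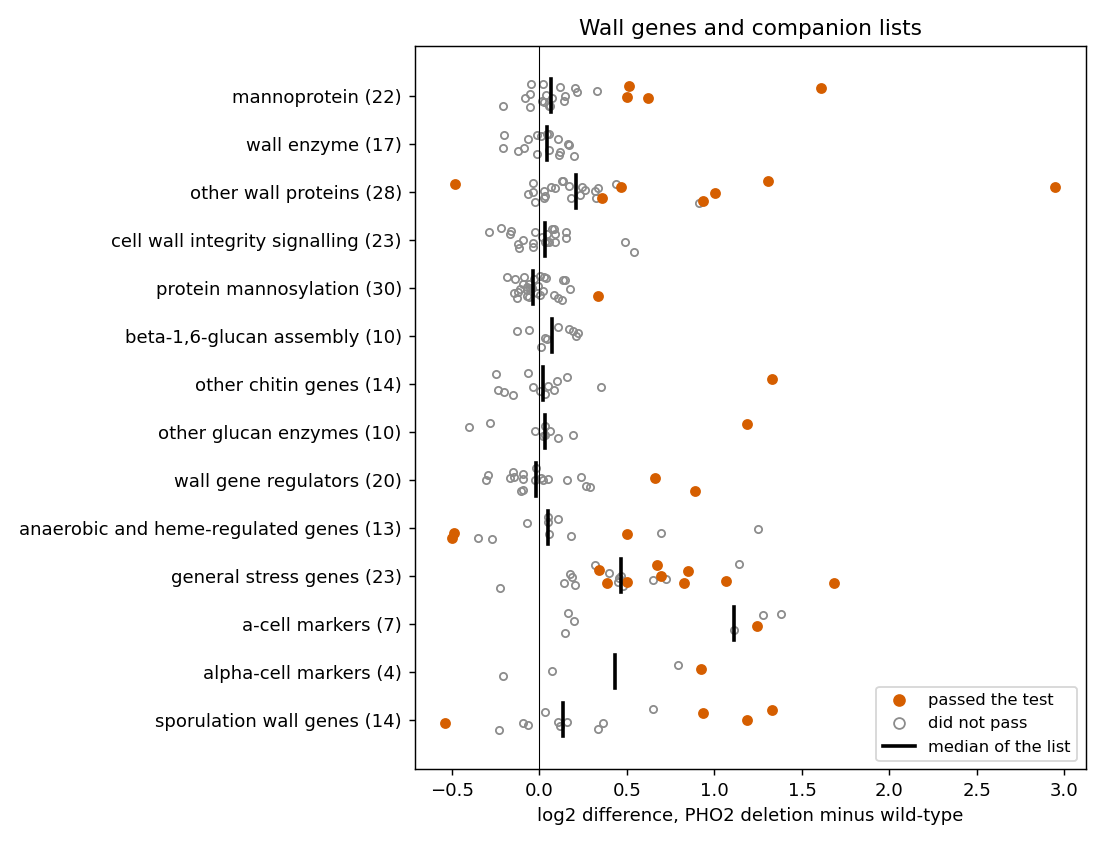
Log2 difference, PHO2 deletion minus wild-type (x axis), of each gene in the 2 classes of wall genes and the 12 companion lists, with the number of genes in brackets, filled circles for genes past the threshold and bars for list medians. The enzymes have no filled circle, general stress genes have a median of 0.46, and the a-cell markers have a median of 1.11.

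General stress genes and cell-type markers were measured beside the wall genes, and their part in the differences of the wall genes was not tested. Of 23 general stress genes 9 rose and 0 fell, with a median of 0.46, beside 3.17% of all genes that rose and 1.87% that fell. HSP12, a small membrane-stabilising heat shock protein gene, gave 12.66 and 12.72 on the PHO2 deletion arrays, against 11.18, 11.23 and 10.61 on the wild-type arrays (log2 1.69, SE 0.20, limma adjusted p = 0.0211). HSP12 has 330 nt, and genes of 600 nt or less had a median difference of 0.32. Its wild-type replicate 3 differed by -0.6 from the mean of the other wild-type arrays. SOL4, CTT1, DCS2, TFS1 and GAD1 rose by 0.67 to 1.06. Of 7 a-cell markers 1 passed, ASG7 (1.24, SE 0.14, adjusted p = 0.0192), and for all 7 both PHO2 deletion values lay above all wild-type values, as for 27.1% of all genes. By size class, this held for 556 of 908 genes of 600 nt or less and for 921 of 4541 longer genes. The larger differences that did not pass were those of the short genes MFA1 (111 nt, 1.38), MFA2 (117 nt, 1.11) and AGA2 (264 nt, 1.28), in a size class whose median over all genes was 0.32. For these 3 genes wild-type replicate 3 was below the mean of the other wild-type arrays, with differences of -0.82, -1.17 and -1.02. The longer a-cell genes STE2, STE6 and BAR1 differed by 0.20, 0.16 and 0.14 and did not pass. The summed signal of the 7 was 82479 to 94045 in the PHO2 deletion group and 50250 to 61506 in wild-type. AGA2, the adhesive subunit of a-agglutinin and itself a wall mannoprotein, gave 13.01 and 13.38 in the PHO2 deletion group, against 12.35, 12.16 and 11.24 in wild-type (adjusted p = 0.101). Of 4 alpha-cell markers STE3 rose (0.93, SE 0.14, adjusted p = 0.0312), with a summed signal of 1842 to 2056 in the PHO2 deletion group and 1611 to 1839 in wild-type, and the groups overlapped for SAG1, alpha-agglutinin (0.07), and MF(ALPHA)2, a second alpha-factor gene (-0.21, 95% interval -0.48 to 0.06). MF(ALPHA)1, the defining alpha-factor gene, was near the background bound in the PHO2 deletion group (6.91 and 6.60) and below it in wild-type (6.07, 5.64 and 6.18).

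The calls of the companion genes depended on which array was left out. Of the 27 companion genes past the threshold, 1 passed without PHO2 deletion replicate 1 (YGP1) and 3 without PHO2 deletion replicate 2 (YGP1, NCA3 and STE3). Without wild-type replicate 1, 2 passed (YGP1 and GAS4), and 22 and 16 did without wild-type replicates 2 and 3. The adjusted p of those that missed was 0.0723 to 0.253, 0.0535 to 0.210, 0.0654 to 0.158, 0.0532 to 0.0704 and 0.0515 to 0.0786 in these 5 fits, in the order given. The number of risen wall genes was 0 without either PHO2 deletion array, 1 without wild-type replicate 1 or 2, and 3 without wild-type replicate 3.

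**Figure D5:**
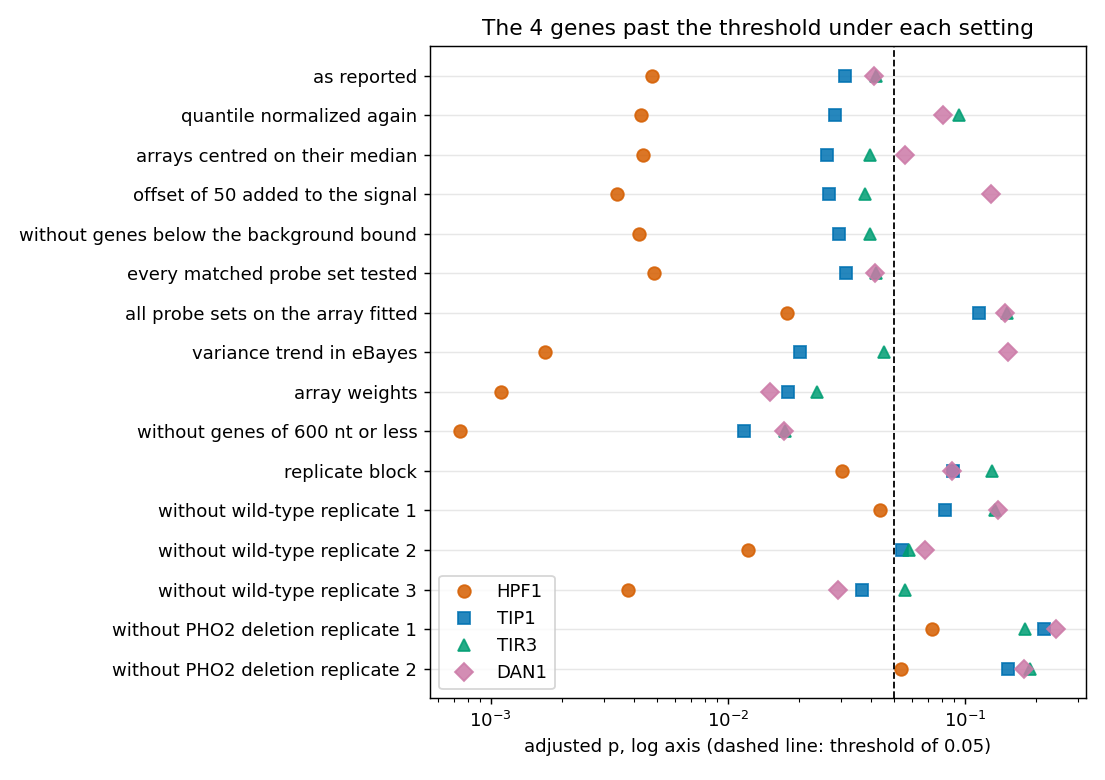
Adjusted p (x axis, log scale, dashed line at 0.05) of HPF1, TIP1, TIR3 and DAN1 as reported and under each of 15 alternatives (y axis). HPF1 is left of the line except without a PHO2 deletion array (0.0723 and 0.0535), and TIP1, TIR3 and DAN1 lie to the right of it under 6, 8 and 10 alternatives.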

How the data were processed

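Biotin-labelled RNA was measured on Affymetrix arrays, per the labels' protocols. The deposited value of each probe set is a linear intensity, between 9.49 and 37719. R 2.8.0, affy and RMA are named per the submitters' processing notes; that RMA values were turned back to a linear scale is an inference, and no source says which arrays were normalized together. Quantile normalization, a step of RMA, would hide a change common to most transcripts. The median signal over all probe sets was 313 and 297 on the PHO2 deletion arrays, against 260, 253 and 244 on the wild-type arrays. Over the genes tested the log2 medians were 11.18 and 11.16, against 11.13, 11.16 and 11.09. The part of this offset in the differences of genes with low signal was not tested. Of 10928 probe sets, 5498 were matched to 1 gene of assembly R64 by gene number or locus tag, 1747 annotated ones were not matched and 3683 are unnamed here. For 47 genes the probe set with the highest mean was used, leaving 5449. The files give no genome build, so no coordinates are printed, and sequences were not used here.

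Groups and replicate numbers came from the sample titles. R 4.3.3 and limma 3.58.1 were used for all tests on log2 signal (eBayes after lmFit, two-sided, 3 residual and 2.23 prior degrees of freedom), tested on simulated data. Errors of differences are moderated standard errors. A permutation of 5 arrays has 10 splits and a smallest p of 0.1, so none is given. The number of arrays limits the precision. The wall genes and the 12 companion lists (186 measured genes, 10 in more than 1 list) were chosen with earlier results of these data known. All wall genes are named. In each companion list the genes past the threshold (at most 6, by absolute difference) are named, or else the 2 largest differences. Named outside that rule, after their values were seen, were FIT1, EXG2, GAS2, CDA2, CYC7, COX5B, SLT2, RLM1, regulators, duplicates and the other a-cell and alpha-cell markers. DAN2 and DAN3 of the lists are PAU24 and PAU23 in the gene table. A further list is not reported here. Columns of other samples numbered 0.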

Additional observations from a re-analysis of the deposited data

How the results depend on the processing

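Over 15 alternatives, 582 values of the wall genes were recomputed: 528 kept direction and side of the threshold, 26 no longer passed (2 of HPF1, 6 of TIP1, 8 of TIR3, 10 of DAN1), 2 newly passed (SED1, FLO1) and 26 changed sign. No enzyme passed under any alternative. DAN1 has no value without genes below the background bound.

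The sign changes were all of differences near 0. With the arrays quantile normalized again CWP1 was -0.01, TIR2 -0.13, TIR4 -0.12 and CHS3 -0.02. With arrays centred on their median CWP1 was -0.01, TIR2 -0.02, TIR4 -0.02, ECM33 -0.03 and CHS3 -0.04. TIR4 was -0.01 with array weights. With 1 array left out the ranges were -0.06 to 0.13 for CWP1, -0.04 to 0.10 for TIR2, -0.14 to 0.18 for TIR4, -0.01 to 0.03 for CHS3, -0.01 to 0.06 for ECM33, -0.13 to 0.11 for GSC2, -0.06 to 0.03 for BGL2 and -0.03 to 0.14 for PIR3.

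The 4 risen mannoproteins became 2 (and 1 fallen) when quantile normalized again, 1 with all probe sets on the array fitted, and 0 to 3 with 1 array left out. Among the companion genes 23 rose and 4 fell; the fallen were 7 when quantile normalized again, 9 with array weights and 8 without genes of 600 nt or less, and with all probe sets fitted 2 rose and 0 fell. With 1 array left out 1 to 26 rose and 0 to 4 fell. Over all genes 173 rose and 102 fell; 245 fell when quantile normalized again, 372 rose and 266 fell with array weights, 240 fell without genes of 600 nt or less, 22 rose and 18 fell with all probe sets fitted (more features tested), and 9 to 208 rose and 9 to 55 fell with 1 array left out. The medians of mannoproteins and enzymes were 0.02 and 0.00 with arrays centred on their median, against 0.07 and 0.05 as reported, and 0.06 to 0.12 and 0.01 to 0.08 with 1 array left out. Except where stated, the cause was not tested.

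With the replicate block, 1 mannoprotein rose (HPF1, 1.69, adjusted p = 0.0302), 24 genes rose and 11 fell over all genes, 4 companion genes rose and 0 fell, and CWP1 and TIR4 were each -0.01. The replicate numbers are not stated to mark shared batches, and deviations of same-numbered arrays correlated at -0.378 for number 1 and -0.003 for number 2, so they were not taken as pairs. Depth has no counterpart here; DAN1 is the 1 wall gene limited by its signal over background.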
